A study of Homo sapiens with 6 samples.

Results

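The genes described here are 35 targets of the tumour suppressor p53 and inhibitors of the cell cycle, taken by gene symbol from a table of 60612 human gene rows, in which each of the 35 has 1 row. They were grouped by role into 5 genes that control p53 or feed back on it, 6 inhibitors of cyclin-dependent kinases (CDK), 7 genes of arrest and growth restraint, 14 of apoptosis and mitochondrial stress, and 3 of DNA repair. RNA was sequenced from 6 libraries of SNU-368, an established human hepatocellular carcinoma cell line. Of these, 3 libraries carry the label shCtrl, for a control short hairpin RNA, and 3 the label shTFAM, for a hairpin against TFAM. TFAM is a factor for the packaging and transcription of mitochondrial DNA (mtDNA). The sources used here do not give the hairpin sequences, the time after knockdown, whether each group was 1 clone or a pool, or the state of the p53 gene in this line. The study's title concerns nuclear actin assembly and metastasis after loss of TFAM, and the single comparison is shTFAM against shCtrl.

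p53 is a transcription factor that the ubiquitin ligase MDM2 and its relative MDM4 hold at a low level in unstressed cells. DNA damage and other stresses release it, and it then switches on genes that stop the cell cycle, repair DNA or start apoptosis, with CDKN1A and MDM2 among its most widely used readouts. CDK inhibitors fall into the CIP/KIP family (CDKN1A, CDKN1B, CDKN1C), which binds cyclin-CDK complexes, and the INK4 family (CDKN2A to CDKN2D), which binds CDK4 and CDK6 and so keeps the RB protein active. Several INK4 and CIP/KIP genes are controlled without p53, for example by TGF-beta in the case of CDKN2B.

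For orientation, the sequence around each match to the p53 consensus decamer, the 10-base unit of which a p53 site holds a pair, was taken from RefSeq promoters (GRCh38.p14) for the member genes that hold an exact match. Windows of 250 bases before each annotated start were found for 31 members (46 windows) and not for GADD45A, PHLDA3, TNFRSF10A and TP53INP1. The decamer reads the same on both strands, and 6 of the 46 windows held it (13.0%), against 1957 of all 35116 windows (5.57%). Each line below gives 10 bases on either side in lower case and the decamer in capitals, 5′ to 3′ on the gene's strand.
AEN (chr15:88621296-88621325, plus strand): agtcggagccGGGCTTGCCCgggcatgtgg
FAS (chr10:88991299-88991328, plus strand): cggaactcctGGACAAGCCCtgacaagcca
FDXR (chr17:74872986-74873015, minus strand): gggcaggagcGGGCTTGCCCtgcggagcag
PLK2 (chr5:58460199-58460228, minus strand): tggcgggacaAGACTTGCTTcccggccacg
RPS27L (chr15:63157517-63157546, minus strand): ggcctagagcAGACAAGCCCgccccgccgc
SESN1 (chr6:109009018-109009047, minus strand): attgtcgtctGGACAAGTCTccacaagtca
Of these 6 genes, 0 passed the expression test described below (edgeR), against 17.9% of all tested rows. At an unadjusted p under 0.05, 0 passed it, against 34.8% of all tested rows. DESeq2 and limma on log2(FPKM + 1), which called 26.8% and 17.8% of the rows they tested, also called 0 of the 6. A match is a description of the letters, and p53 sites of many targets lie outside such windows.

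Library totals ran from 43286024 to 61058282 counts, and levels are given as CPM (counts scaled to library depth with TMM factors). A count of 0 allows a level of up to 0.0519 to 0.0677 CPM (3 counts), by counting error alone. The libraries shCtrl 3 and shTFAM 3 stood further from the other 2 of their group than those did from each other (chi-square per degree of freedom 126 and 138.1 against 42.2, and 114 and 124.4 against 61.2). TFAM was lower in every shTFAM library (63.7, 65.0 and 56.7 CPM) than in any shCtrl library (82.2, 76.2 and 89.6 CPM), a log2 fold change of -0.42 (SE 0.107, edgeR adjusted p 0.0377). That call ended without any 1 of the 6 libraries (edgeR adjusted p 0.0676 to 0.0948). Of 10 hepatocyte lineage markers, 6 (ALB, AFP, TTR, APOA1, APOB and FGB) had 0 counts in all libraries, while KRT8 and KRT18 were abundant. KRT8 rose (log2 fold change 0.61, edgeR adjusted p 0.0160), while KRT18 did not pass (-0.069, edgeR adjusted p 0.724). The summed level of the 10 markers, nearly all of it from KRT8 and KRT18, was 1125 to 1346 CPM in shCtrl and 1512 to 1641 CPM in shTFAM. Of 10 markers of other cell types, PTPRC, CD3E and COL1A2 had 0 counts in all libraries. The sum of these 10 was 259 to 394 CPM in shCtrl and 405 to 500.4 CPM in shTFAM, with COL1A1 the largest part in every library. COL1A1 did not pass (log2 fold change 0.091, edgeR adjusted p 0.779), while CD68, PDGFRB and DCN rose (1.43, 1.69 and 2.95). The part of either marker list in the results below was not tested. In bulk RNA, fewer cells of a type and less RNA per cell cannot be told apart. Whether the replicates came from separate cultures is not in the labels; the spread behind every p-value may therefore be technical.

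Few of the members changed, and in both directions. Of 32 members with a mean of at least 0.5 FPKM (fragments scaled to gene length and library depth), 4 rose and 1 fell in shTFAM by edgeR's quasi-likelihood test at an adjusted p of 0.05, and 27 did not pass. Those called were the INK4 inhibitors CDKN2B and CDKN2D, the desmosomal p53 target PERP and the damage sensor DDB2, which rose, and TRIAP1, which fell. The 5 calls are 15.6% of the 32, near the background: 17.9% of all 14708 tested rows were called, 11.3% as higher and 6.59% as lower. The groups of 3 did not overlap in 12 of the 32 (8 higher and 4 lower in shTFAM), against 42.2% of all rows (22.1% higher and 20.1% lower). The median log2 fold change of the 32 was 0.027, with 18 positive and 14 negative values, beside -0.015 over all rows. CDKN2B, CDKN2D and PERP were called in every alternative in which they were tested, each left-out library included, whereas DDB2 and TRIAP1 lost their calls in 6 of 16 alternatives each. Scaling to library totals moved the split of all calls from 1661 higher and 969 lower to 1353 and 1266, and scaling to the counts outside mtDNA moved it to 1198 and 1771, with the median of all rows at -0.15. Under both, 4 members rose and 2 fell (18.8% called, against 17.8% and 20.2% of all rows). The median over the members was -0.046 and -0.10.

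**Figure D1:**
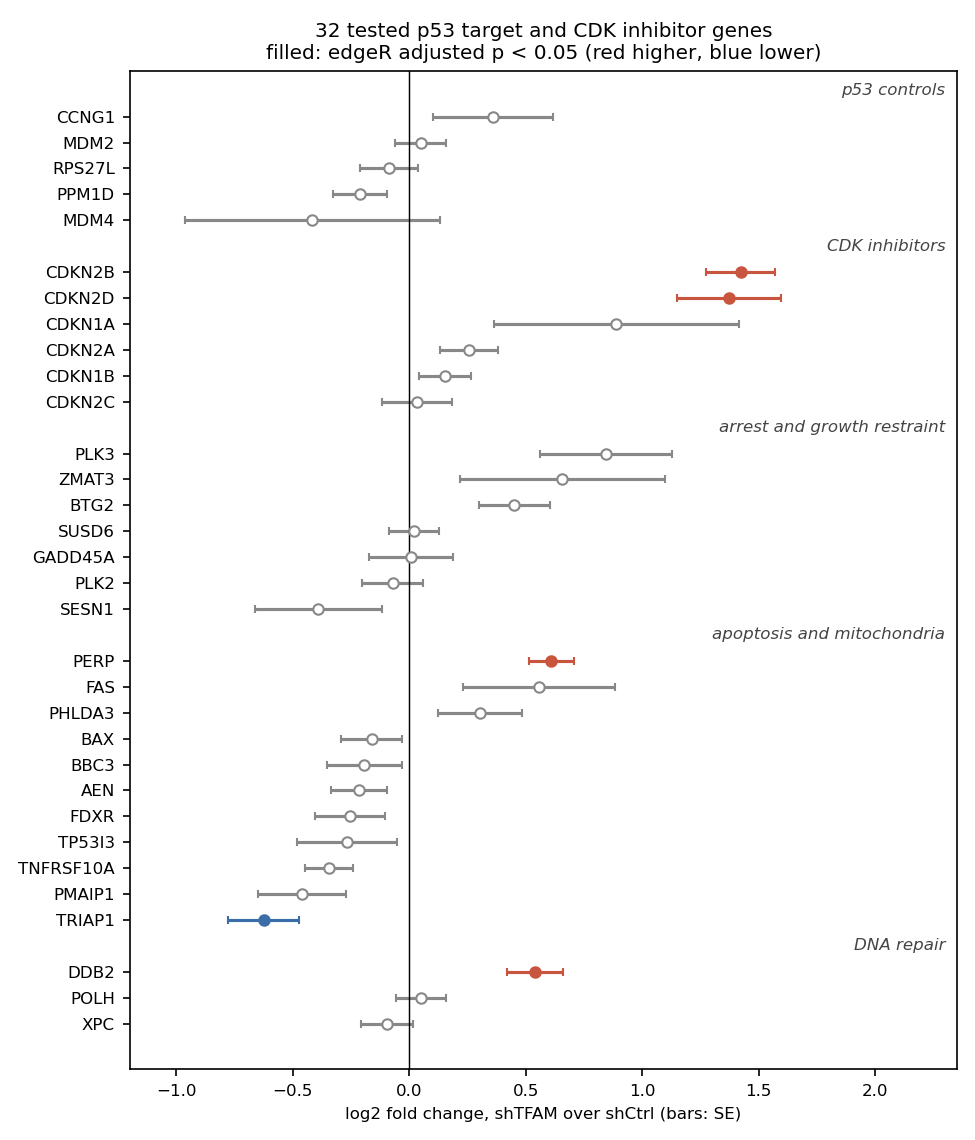
Log2 fold change of shTFAM over shCtrl for the 32 tested members, by role, with bars of the SE from 3 libraries a group. Filled points passed an edgeR adjusted p of 0.05: CDKN2B (1.42), CDKN2D (1.37), PERP (0.61) and DDB2 (0.54) above 0, and TRIAP1 (-0.62) below it.

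The CDK inhibitors held the 3 highest fold changes among the tested members, CDKN2B, CDKN2D and CDKN1A. The first 2 passed the test (33.3% of the 6, against 17.9% of all rows). All 6 had positive log2 fold changes, as did 7154 of all 14708 rows. The median over the 6 was 0.57. The value of CDKN2C turned negative in 8 of 16 alternatives. These were scaling to library totals, scaling outside mtDNA, both tests on log2 FPKM, and leaving out shCtrl 1, shCtrl 2, shTFAM 1 or shTFAM 2. CDKN2B (p15INK4B; ENSG00000147883, chromosome 9, 22002903 to 22009305, minus strand, hg38), an inhibitor of CDK4 and CDK6, stood at 18.9, 17.8 and 13.6 CPM in shCtrl and at 47.5, 45.1 and 42.3 CPM in shTFAM. Every shTFAM library lay above every shCtrl library, with a gap wider than the spread within either group. The rise was 2.68-fold (1.42 on the log2 scale, SE 0.148, edgeR adjusted p 0.00282). With any 1 library left out the edgeR adjusted p lay between 0.00525 and 0.0146.

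CDKN2D (p19INK4D; ENSG00000129355, chromosome 19, 10566460 to 10569059, minus strand), a further INK4 inhibitor with the same kinase targets, was the least abundant of the 6. It stood at 3.13, 3.80 and 3.14 CPM in shCtrl and 7.00, 8.21 and 10.9 CPM in shTFAM. The groups did not overlap, and the values in shTFAM were more scattered than those in shCtrl. It rose 2.59-fold (1.37 on the log2 scale, SE 0.223, edgeR adjusted p 0.00939; 0.0156 to 0.0395 over left-out libraries). It was not tested where rows of at least 5 FPKM were kept.

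The other INK4 genes did not pass the test. The CDKN2A row, which joins the transcripts of p16INK4A and of ARF, an inhibitor of MDM2, held 107.4, 90.4 and 107.3 CPM in shCtrl and 137, 108.0 and 119 CPM in shTFAM. The groups stood narrowly apart, and the difference did not pass (log2 fold change 0.26, SE 0.124, edgeR adjusted p 0.191). CDKN2C (p18INK4C), the most abundant INK4 row by FPKM in these cells, overlapped between groups with 114, 114.1 and 135 CPM against 137, 135 and 99.3 CPM (0.034, SE 0.149, edgeR adjusted p 0.899). Its unadjusted 95% interval ran from -0.32 to 0.39. Whether the change of CDKN2B differs from that of CDKN2A or CDKN2C was not tested.

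Among the CIP/KIP genes, CDKN1A (p21; ENSG00000124762, chromosome 6, 36676460 to 36687337, plus strand), the best known arrest gene of p53, varied more between libraries than between groups. It stood at 37.3, 130.3 and 90.8 CPM in shCtrl and at 204, 204 and 71.1 CPM in shTFAM. The shTFAM 3 library lay below 2 of the shCtrl libraries, and shCtrl 1 lay lowest of all 6. The difference of 0.89 on the log2 scale did not pass (SE 0.525, edgeR adjusted p 0.273), with an unadjusted 95% interval from -0.35 to 2.12 that leaves room for both no change and a rise of several-fold. CDKN1B (p27) did not pass, at 120.5, 123.5 and 117 CPM in shCtrl and 116, 135 and 149 CPM in shTFAM (0.15, SE 0.112, edgeR adjusted p 0.374). CDKN1C (p57), an imprinted CIP/KIP gene outside the 35, rose from 24.9, 18.1 and 20.3 CPM to 52.3, 53.9 and 87.0 CPM. Its log2 fold change of 1.61 (SE 0.230, edgeR adjusted p 0.00634) is given here to complete the family.

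**Figure D2:**
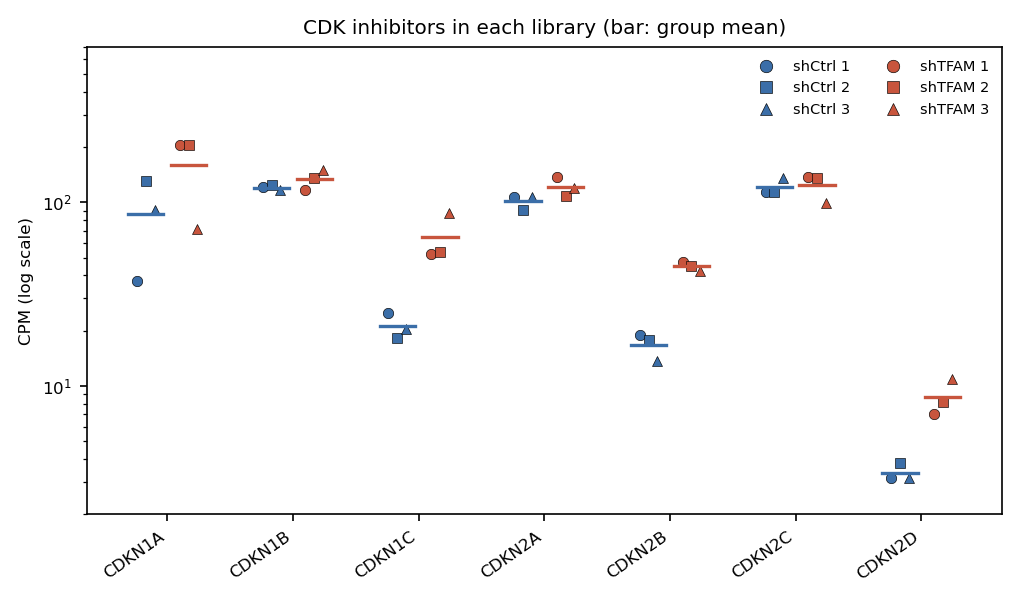
CPM on a log axis of the CDK inhibitors in each of 6 libraries, shCtrl blue and shTFAM red, with a symbol for each library and a bar at the group mean. CDKN1C, CDKN2B, CDKN2D and, narrowly, CDKN2A are separated by group, while CDKN1A ranges from 37.3 to 204 CPM with both groups overlapping.

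The immediate promoters of the 2 INK4 members that rose are shown because these genes moved by similar amounts and lie on different chromosomes. The 250 bases before each start are given in lower case, 5′ to 3′ on the minus strand, with the GC box (GGGCGG, or CCGCCC on the other strand) in capitals.
CDKN2B (chr9:22009306-22009555): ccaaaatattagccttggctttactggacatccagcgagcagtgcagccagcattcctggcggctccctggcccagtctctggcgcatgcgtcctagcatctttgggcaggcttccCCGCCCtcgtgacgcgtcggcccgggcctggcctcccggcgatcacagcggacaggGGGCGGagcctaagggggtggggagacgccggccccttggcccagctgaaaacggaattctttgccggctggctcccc
CDKN2D (chr19:10568980-10569229): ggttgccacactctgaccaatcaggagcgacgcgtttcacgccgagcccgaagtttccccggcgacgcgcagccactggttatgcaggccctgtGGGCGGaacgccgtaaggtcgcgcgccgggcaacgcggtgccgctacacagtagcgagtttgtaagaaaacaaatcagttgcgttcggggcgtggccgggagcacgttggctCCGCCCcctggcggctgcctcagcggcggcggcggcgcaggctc
Each window held 2 GC boxes. At least 1 was found in 36 of the 46 member windows (78.3%) and in 42.6% of all 35116 windows, so most member windows hold this motif, called or not.

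CDKN2B lies in the INK4 locus of the short arm of chromosome 9, and its neighbours were examined in map order. KLHL9, 667.5 kb from CDKN2B, and MTAP, 65.2 kb away, did not pass, at 36.2 and 36.7 CPM for KLHL9 and 37.4 and 36.9 CPM for MTAP (means of shCtrl and shTFAM). CDKN2A lies 8.03 kb from CDKN2B. The antisense RNA CDKN2B-AS1, also called ANRIL, overlaps the CDKN2B row on the other strand and has been described as a repressor of the locus. It held 13.0, 10.5 and 10.9 CPM in shCtrl and 9.25, 8.53 and 7.43 CPM in shTFAM, so every shTFAM library was lower. It fell below the FPKM filter and was not tested in the fit reported here. Its counts over the 6 libraries were 31.8% of those of CDKN2B. Libraries keep the strand per the labels' protocols, but the sources used here do not give the strand setting of the counting, so shared reads cannot be told apart.

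DMRTA1, a transcription factor gene 437.5 kb from CDKN2B on the other side, stood at 2.03, 2.81 and 2.05 CPM in shCtrl and 6.27, 5.07 and 4.0 CPM in shTFAM. It rose by 1.15 on the log2 scale (SE 0.257, edgeR adjusted p 0.0253). That call ended without shCtrl 1 (0.0830), shCtrl 3 (0.0669), shTFAM 1 (0.0718) or shTFAM 2 (0.0656), when shCtrl 3 and shTFAM 3 were left out together (0.0535), and in both limma fits to log2 FPKM (0.0775 and 0.0859). IFNE, an interferon gene of this region, held 1.09 and 0.804 CPM (means of shCtrl and shTFAM) and did not pass. CDKN2A-DT and ELAVL2 did not exceed 0.316 CPM in any library and fell below the FPKM filter.

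**Figure D3:**
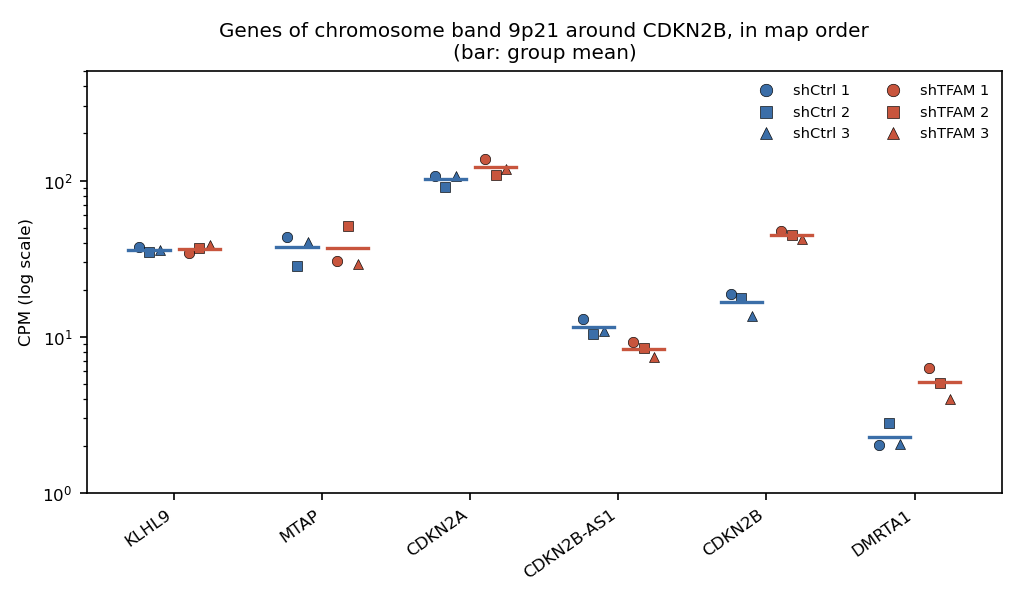
CPM on a log axis of 6 genes around CDKN2B, in map order from KLHL9 to DMRTA1, in each library with group means. CDKN2B, DMRTA1 and, narrowly, CDKN2A are higher in all 3 shTFAM libraries, CDKN2B-AS1 is lower in all 3, and KLHL9 and MTAP overlap between groups.

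None of the 5 genes that control p53 or feed back on it passed the edgeR test, against 17.9% of all rows. At an unadjusted p under 0.05 edgeR also gave 0, against 34.8% of all rows. DESeq2 and limma on log2(FPKM + 1) called 0 of the 5, against 26.8% and 17.8% of the rows they tested. MDM2 (ENSG00000135679, chromosome 12, 68808177 to 68850686, plus strand), the ligase that marks p53 for degradation, stood at 63.3, 59.9 and 72.3 CPM in shCtrl and 62.5, 69.1 and 70.8 CPM in shTFAM. The 2 ranges lay almost on top of each other, with a log2 fold change of 0.049 (SE 0.110, edgeR adjusted p 0.789) and an unadjusted 95% interval from -0.21 to 0.31. The row overlaps the carboxypeptidase M gene on the other strand, whose counts were 116% of those of MDM2. PPM1D, the phosphatase that switches the response off, was lower in all 3 shTFAM libraries (22.0, 23.1 and 19.8 CPM against 26.3, 24.1 and 24.8) without passing (-0.21, SE 0.117, edgeR adjusted p 0.241).

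MDM4, which binds p53 and blocks its activity, differed 4.35-fold between its highest and lowest shTFAM libraries. It held 46.1, 21 and 31.4 CPM in shCtrl and 46.9, 10.8 and 16.2 CPM in shTFAM, so that the highest libraries of both groups were alike (log2 fold change -0.42, SE 0.548, edgeR adjusted p 0.634). CCNG1, a cyclin that brings a phosphatase to MDM2, was even across 5 libraries (46.5 to 51.0 CPM) and stood at 93.7 CPM in shTFAM 2. Without shTFAM 2 its log2 fold change went from 0.36 to -0.026. RPS27L, a ribosomal protein relative that binds MDM2, overlapped between groups (103.5 and 97.5 CPM, means of shCtrl and shTFAM). The RPS27L row overlaps LACTB on the other strand, which held 45.2% of its counts.

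Of the 7 arrest and growth restraint genes, 0 passed the edgeR test, against 17.9% of all rows. An unadjusted p under 0.05 was found for 2 (28.6%, against 34.8% of all rows), and the median log2 fold change was 0.020. These 2, PLK3 and BTG2, were higher in all 3 shTFAM libraries. PLK3, a stress-responsive polo-like kinase, held 6.40, 8.58 and 5.05 CPM in shCtrl and 10.1, 9.66 and 16.2 CPM in shTFAM (0.84, SE 0.282, edgeR adjusted p 0.0805). BTG2, an antiproliferative partner of the deadenylase complex, held 29.2, 33.2 and 22.5 CPM and 38.6, 40.4 and 37.2 CPM (0.45, SE 0.153, edgeR adjusted p 0.0833). DESeq2, with 26.8% of rows called, gave both as higher (DESeq2 adjusted p 0.0213 and 0.0471), and edgeR did not in any alternative.

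ZMAT3, an RNA-binding protein that p53 induces, and SESN1, a sestrin that restrains mTORC1, had their lowest values in shTFAM 3. ZMAT3 stood at 14.1, 10.2 and 9.91 CPM in shCtrl and 19.9, 26.8 and 7.15 CPM in shTFAM (0.66, SE 0.439, edgeR adjusted p 0.330). Without shTFAM 3 it was called as higher, with a log2 fold change of 1.04 (edgeR adjusted p 0.0438). SESN1 stood at 28.1, 25.6 and 40.1 CPM in shCtrl and 27.8, 28.4 and 15.5 CPM in shTFAM (-0.39, SE 0.273, edgeR adjusted p 0.351); leaving out both shCtrl 3 and shTFAM 3 turned its value to 0.066. The remaining members, the damage-inducible GADD45A, the polo-like kinase PLK2 and the growth inhibitor SUSD6, overlapped between groups with log2 fold changes of 0.0073, -0.070 and 0.020.

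**Figure D4:**
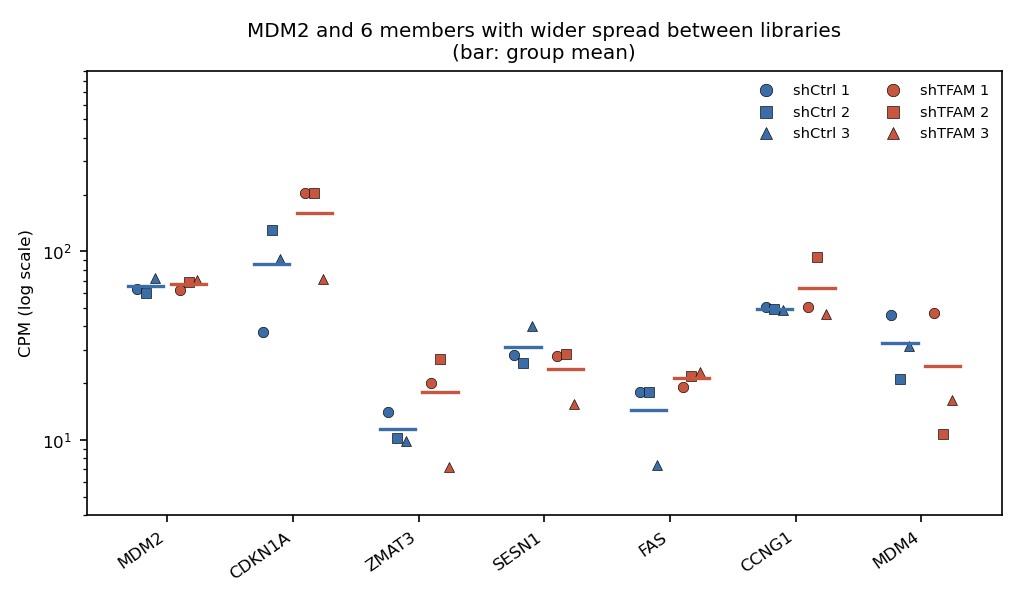
CPM on a log axis of MDM2 and 6 members with wider spread, in each library with group means. MDM2 stays between 59.9 and 72.3 CPM, whereas 1 library lies apart within its group for CCNG1 (shTFAM 2), FAS (shCtrl 3), and ZMAT3 and SESN1 (shTFAM 3).

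Of the 14 apoptosis and mitochondrial stress genes, 11 were tested, 1 rose, 1 fell and 9 did not pass (18.2% called, against 17.9% of all rows). Log2 fold changes were negative in 8 of the 11 and in 7554 of all 14708 rows. The median was -0.22 over the 11. PERP (ENSG00000112378, chromosome 6, 138088505 to 138107419, minus strand), a membrane protein of desmosomes that p53 and p63 induce, rose. It held 150 CPM in shCtrl 1, 147 in shCtrl 2 and 174 in shCtrl 3, against 234, 242 and 240.2 CPM in shTFAM. The shTFAM libraries were close together and all above the shCtrl range, a 1.52-fold rise (0.61 on the log2 scale, SE 0.0964, edgeR adjusted p 0.00884; 0.00830 to 0.0425 over left-out libraries).

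TRIAP1 (ENSG00000170855, chromosome 12, 120443964 to 120446384, minus strand), a small p53-induced protein that restrains apoptosis and carries phosphatidic acid between mitochondrial membranes, fell. It held 52.2, 48.5 and 70.2 CPM in shCtrl and 38.5, 35.8 and 36.6 CPM in shTFAM, with no overlap. The fall was 1.54-fold (-0.62 on the log2 scale, SE 0.152, edgeR adjusted p 0.0331). The call ended without shCtrl 1 (0.0605), shTFAM 1 (0.0680), shTFAM 2 (0.0934) or shTFAM 3 (0.0886) and with no filter (0.0506). Without shCtrl 3, the library with the highest value, the log2 fold change was -0.45 and the call stayed (edgeR adjusted p 0.0330).

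The BCL2-family killers, which open the outer mitochondrial membrane, gave no calls. BAX, the pore former, held 40.2, 35.3 and 38.9 CPM in shCtrl and 39.5, 30.0 and 32.8 CPM in shTFAM (-0.16, SE 0.131, edgeR adjusted p 0.424). BBC3 (PUMA), a BH3-only activator, held 9.83 and 8.59 CPM (means of shCtrl and shTFAM; -0.19, edgeR adjusted p 0.433). PMAIP1 (NOXA), a BH3-only protein that neutralises MCL1, held 15.7, 15.6 and 11.0 CPM and 11.3, 10.4 and 9.09 CPM (-0.46, SE 0.189, edgeR adjusted p 0.133). All 3 had lower means in shTFAM, and in each the groups overlapped.

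Death receptors had fold changes of opposite sign that did not pass. FAS, the receptor of FAS ligand, held 18.0, 18.0 and 7.40 CPM in shCtrl and 19.0, 21.9 and 22.9 CPM in shTFAM (0.56, SE 0.326, edgeR adjusted p 0.268). Its groups did not overlap, and shCtrl 3 was the library far below the other 5. TNFRSF10A, a receptor of TRAIL, was lower in all 3 shTFAM libraries (26.2, 25.2 and 26.4 CPM) than in shCtrl (31.4, 32.05 and 35.3 CPM), with a log2 fold change of -0.34 (SE 0.103, edgeR adjusted p 0.0595). It passed in 6 of 16 alternatives, among them DESeq2 (0.0265), library totals (edgeR adjusted p 0.0391) and rows of at least 5 FPKM (0.0284), and in 0 of the 6 with a library left out. Rows on the other strand overlap TNFRSF10A with up to 22.3% of its counts.

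The remaining tested genes of this group did not pass. AEN, a p53-induced nuclease, was lower in all 3 shTFAM libraries (51.2, 51.6 and 56.9 CPM against 56.9, 57.4 and 71.1), narrowly so (-0.22, edgeR adjusted p 0.247). PHLDA3, which competes with AKT for membrane lipids, held 22.8 and 28.1 CPM (means of shCtrl and shTFAM; 0.30, edgeR adjusted p 0.275). The quinone oxidoreductase TP53I3 (-0.27, edgeR adjusted p 0.419) and the mitochondrial ferredoxin reductase FDXR (-0.26, edgeR adjusted p 0.272) overlapped between groups. Another 3 members were below the filter. SPATA18, a mitochondrial quality control gene, had 0 counts in every library. EDA2R, a receptor of the TNF family, had 12 counts in shCtrl 1 and 0 elsewhere. TP53INP1, a stress-induced nuclear protein, held 2.99 ± 1.03 CPM in shCtrl and 2.15 ± 0.537 CPM in shTFAM (SD, n = 3 each). The TP53INP1 row overlaps NDUFAF6 on the other strand, which held 643% of its counts.

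Of the 3 repair genes, 1 rose (33.3% called, against 17.9% of all rows). DDB2 (ENSG00000134574, chromosome 11, 47214465 to 47239217, plus strand), which recognises ultraviolet lesions for nucleotide excision repair, held 62.2, 63.3 and 54.8 CPM in shCtrl and 84.5, 78.8 and 99.0 CPM in shTFAM. The groups did not overlap, and the rise was 1.45-fold (0.54 on the log2 scale, SE 0.12, edgeR adjusted p 0.0251). The direction held without each library, but the call ended without shCtrl 1 (0.0649), shCtrl 2 (0.0646), shCtrl 3 (0.0532), shTFAM 1 (0.0557) or shTFAM 3 (0.0609). XPC, the other damage sensor of the same pathway, overlapped between groups at 119, 113 and 94.8 CPM against 98.7, 107.0 and 100.5 (-0.094, SE 0.111, edgeR adjusted p 0.593). POLH, the polymerase that copies past ultraviolet lesions, held 40.0, 37.0 and 45.0 CPM and 41.8, 42.8 and 41.8 CPM (0.051, SE 0.106, edgeR adjusted p 0.770). The POLH row overlaps GTPBP2 on the other strand, which held 462% of its counts.

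Scaled to gene length, the members covered a wide range of levels. In shCtrl the highest mean FPKM was that of CDKN1B (40.5), followed by TRIAP1 (34.9), CDKN2C (34.7) and PERP (32.3). The shCtrl values of the last 3 overlapped among themselves, and those of TRIAP1 also reached into the range of CDKN1B. The lowest of the 32 tested were CDKN2D (1.93), PLK3 (1.72) and ZMAT3 (0.872). In shTFAM the mean FPKM of CDKN2B was 9.19, against 3.62 in shCtrl, and that of CDKN2D 4.70. MDM2 stood at 4.19 and 4.09 FPKM (means of shCtrl and shTFAM). CDKN1A stood at 24.8 and 43.9 FPKM, above MDM2 in every library.

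**Figure D5:**
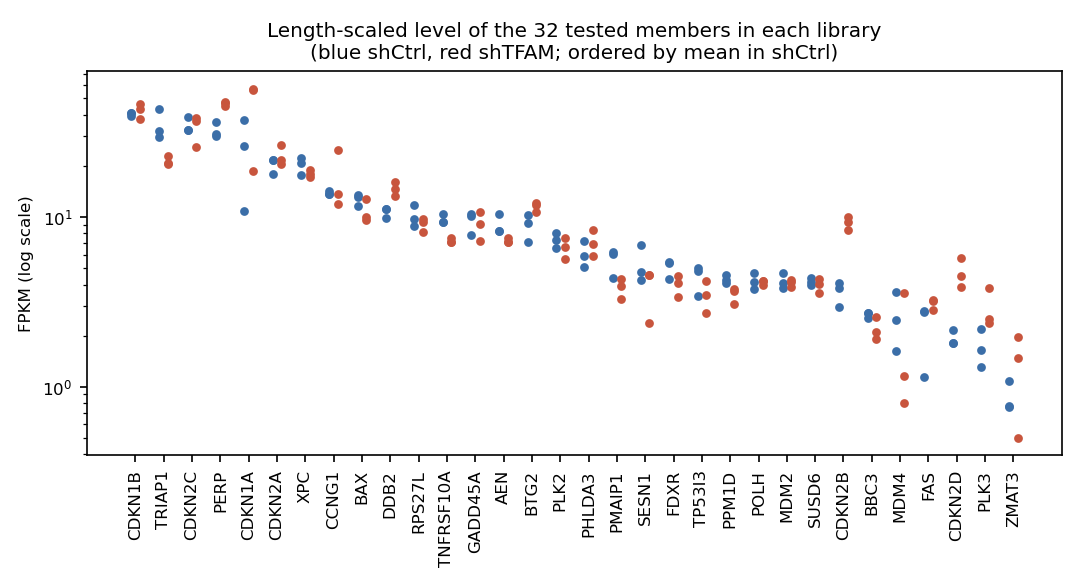
FPKM on a log axis of the 32 tested members in each library, ordered by the mean in shCtrl, from CDKN1B (40.5) to ZMAT3 (0.872). Blue points are shCtrl and red points shTFAM libraries; CDKN2B and CDKN2D are the members whose red points stand furthest above the blue.

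A wider list of 57 further p53 targets was also called in both directions. Of 49 tested, 5 rose, 5 fell and 39 did not pass the edgeR test (20.4% called, against 17.9% of all rows), with a median log2 fold change of 0.053. EPHA2, an ephrin receptor, rose from 66.0, 60.5 and 40.2 CPM to 145, 114 and 167 CPM (1.35, edgeR adjusted p 0.00939), and the serpin SERPINB5 (maspin) from 31.9, 35.1 and 48.5 CPM to 83.8, 89.1 and 84.0 CPM (1.15, edgeR adjusted p 0.00634). The decapping factor DCP1B (-1.25, edgeR adjusted p 0.00706), the KIT ligand KITLG (-1.15, edgeR adjusted p 0.0111), the hydrolase CMBL (-0.58, edgeR adjusted p 0.0117) and the chaperone HSPA4L (-0.59, edgeR adjusted p 0.0148) fell. These 6 calls held without each single library. The TRAIL decoy receptor TNFRSF10D rose (0.81, edgeR adjusted p 0.0253), a call that ended without shCtrl 1 (0.0794), shCtrl 2 (0.0749) or shTFAM 2 (0.0526).

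TIGAR, a phosphatase that lowers glycolytic flux, fell (-0.90, edgeR adjusted p 0.0468), and the cotransporter SLC12A4 rose (0.86, edgeR adjusted p 0.0410); both calls ended without any 1 library (edgeR adjusted p 0.0612 to 0.117 and 0.0556 to 0.111). CYFIP2, of the WAVE actin regulatory complex, rose (0.57, edgeR adjusted p 0.0483), a call lost without any library other than shTFAM 3 (0.106 to 0.131). GDF15, a secreted stress cytokine that p53 induces, held 34.4, 32.1 and 8.21 CPM in shCtrl and 19.3, 8.95 and 10.1 CPM in shTFAM. It did not pass (-0.96, SE 0.540, edgeR adjusted p 0.250), and shCtrl 3 lay below every shTFAM library. It is named here after its values were seen. Without shCtrl 1 or shCtrl 2 the count of calls in this list was 6 (12.2% each, against 8.59% and 7.81% of all rows).

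Of 29 genes whose products act on p53, 28 were tested, 3 rose and 1 fell by edgeR (14.3% called, against 17.9% of all rows; median log2 fold change -0.025). The kinase HIPK2, which phosphorylates p53, rose from 29.4 ± 4.30 to 53.3 ± 6.83 CPM (SD, n = 3 each; 0.86, edgeR adjusted p 0.0118), also without each library. PPP1R13L (iASPP), an inhibitor of p53, rose (0.89, edgeR adjusted p 0.0238) and lost its call without shCtrl 1 (0.0538), shCtrl 2 (0.0720), shCtrl 3 (0.0626) or shTFAM 2 (0.0601). The methyltransferases SETD7 (0.37, edgeR adjusted p 0.0382) and PRMT5 (-0.61, edgeR adjusted p 0.0486) rose and fell; PRMT5 lost its call without any 1 library (0.0681 to 0.132) and SETD7 without any other than shCtrl 3 (0.0845 to 0.136). Leaving out 1 library gave 1 to 3 calls in this list. It held 1 call (3.57%) without shCtrl 1, shCtrl 2 or shTFAM 2, against 8.59%, 7.81% and 9.33% of all rows. It held 2 (7.14%) without shTFAM 1 or shTFAM 3, against 11.9% and 9.57% of all rows.

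RNAs of the cell cycle machinery changed in both directions. Of 27 genes, mainly cyclins, CDKs, the RB family and E2F factors, with CDKN1C among them, 25 were tested, 5 rose and 3 fell by edgeR (8 of 25, 32%, against 17.9% of all rows; median log2 fold change 0.15). CDK2 rose from 71.4, 79.9 and 80.4 CPM to 109, 129 and 147 CPM (0.73, edgeR adjusted p 0.0123). CCNB2, a cyclin of mitosis, rose from 102, 106 and 121 CPM to 170.1, 168 and 183 CPM (0.66, edgeR adjusted p 0.00756). The calls of CDK2, CCNB2 and CDKN1C, given above, held without each library. CDK1 rose (0.51, edgeR adjusted p 0.0170), a call lost without shCtrl 1 (0.0632), shCtrl 2 (0.0618) or shTFAM 2 (0.0529).

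CDK4, the kinase that CDKN2B and CDKN2D bind, fell from 145 ± 5.63 to 104 ± 14.3 CPM (SD, n = 3 each; -0.48, edgeR adjusted p 0.0370), and CDK6 did not pass (0.17, edgeR adjusted p 0.310). The call of CDK4 ended without any 1 library (0.0560 to 0.103). RB1 rose (0.45, edgeR adjusted p 0.0322), a call lost without any library other than shTFAM 3 (0.0714 to 0.0996). The E2F factors E2F3 (-0.47, edgeR adjusted p 0.0175) and E2F4 (-0.52, edgeR adjusted p 0.0290) fell; E2F3 lost its call without shCtrl 2 (0.0612) or shTFAM 2 (0.0501) and E2F4 without shCtrl 1 (0.0809), shCtrl 2 (0.0526), shTFAM 2 (0.0878) or shTFAM 3 (0.0747). The list held 4 calls without shCtrl 1 (16%, against 8.59% of all rows in that fit). It held 3 without shCtrl 2 or shTFAM 2 (12% each, against 7.81% and 9.33% of all rows).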

How the data were processed

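RNA from 3 shCtrl and 3 shTFAM libraries was analysed. The authors deposited 1 table with whole-number counts and FPKM per Ensembl gene, per the file headers. Per the submitters' processing notes, the tools included HISAT2 2.0.4, StringTie 1.3.4d, cutadapt 1.9 and Bowtie 0.12.2, with hg38 and mm8 as builds; the tool that made the counts, its annotation and its strand setting are not named in these sources. The treatment label gave the groups, and titles matched the columns; titles share no replicate numbers.

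Counts of the 14708 rows whose mean FPKM reached 0.5 were tested with edgeR 4.0.16 (quasi-likelihood, TMM factors, two-sided, Benjamini-Hochberg over all tested rows, threshold 0.05) in R 4.3.3, checked on simulated counts. The SE was obtained by dividing the log2 fold change by the root of F. DESeq2 1.42.0, limma 3.58.1 on log2(FPKM + 1) and log2(FPKM + 0.1), other filters and scalings, a threshold of 0.01 and left-out libraries were alternatives. No replicate pair agreed within sampling noise. The members and lists were chosen with earlier results of these data known. All 35 members, TFAM, up to 5 called genes per direction of each of 3 lists, and noncoding p53 targets and neighbours of CDKN2B found in the table are named. Figures were drawn with matplotlib 3.10.9.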

Additional observations from a re-analysis of the deposited data

How the results depend on the processing

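Of 32 tested members, 23 kept their sign and 26 their call in every alternative. Leaving out 1 library gave 1148 to 2065 called rows (7.81% to 14%) and 3 to 4 called members (9.38% to 12.5%). The members called were 3 without shCtrl 1 or shTFAM 1 (9.38% each, against 8.59% and 11.9% of all rows). Such fits called 6 to 10 further p53 targets (12.2% to 20.4%) and 1 to 3 p53 regulators (3.57% to 10.7%). Of cyclins, CDKs and related genes they called 3 to 7 (12% to 28%). Without shCtrl 3 and shTFAM 3, 12 further targets were called (24.5%, against 13.6% of all rows). Fewer libraries enter these fits. A threshold of 0.01 gave 698 rows (4.75%), 3 members (9.38%), 3 further targets (6.12%) and 0 regulators. Of the cyclins, CDKs and related genes it gave 2 (8%), the inhibitor CDKN1C and the cyclin CCNB2. At an unadjusted p under 0.05 edgeR gave 9 of 28 regulators (32.1%, against 34.8% of all rows). On log2(FPKM + 1), limma called 4 regulators (14.3%, against 17.8% of all rows). DESeq2 called 8 of 32 members and 7 of 28 regulators (25% each, against 26.8% of all rows). No filter left 2 of 29 regulators (6.9%, against 6.9% of all rows). Rows of at least 5 FPKM held 5 of 22 further targets (22.7%, against 26.8%). Leaving out shCtrl 3 and shTFAM 3 gave 2 regulators (7.14%, against 13.6% of all rows). The cause of these shifts was not tested. No paired analysis was possible because the titles share no replicate numbers.

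Signs turned in 9 members and in NEAT1, MTAP and KLHL9, none of them called in any alternative; CCNG1 (0.36) and SESN1 (-0.39) were the furthest from 0 of these, and the others lay within 0.09 of it. Under library totals the log2 fold changes were -0.027 for MDM2, -0.038 for CDKN2C, -0.062 for GADD45A, -0.055 for SUSD6, -0.024 for POLH and -0.055 for KLHL9, and outside mtDNA -0.082, -0.090, -0.12, -0.11, -0.078 and -0.11. On log2(FPKM + 1) they were -0.025, -0.056, -0.068, -0.051, -0.021 and -0.052, and on log2(FPKM + 0.1) -0.030, -0.058, -0.075, -0.062, -0.025 and -0.060. With rows of at least 5 FPKM, GADD45A stood at -0.027 and KLHL9 at -0.011. Without shCtrl 3 and shTFAM 3, RPS27L stood at 0.075, PLK2 at 0.084, SESN1 at 0.066, MTAP at 0.19 and KLHL9 at -0.020. Over single left-out libraries, MDM2 ranged from -0.0080 to 0.12, CCNG1 from -0.026 to 0.54, RPS27L from -0.19 to 0.019, CDKN2C from -0.059 to 0.17 (0.26 without both library 3s), GADD45A from -0.13 to 0.13, PLK2 from -0.17 to 0.012, SUSD6 from -0.036 to 0.067, POLH from -0.012 to 0.12 (0.14 without both), NEAT1 from -0.41 to 0.44 (-0.71 without both), SESN1 from -0.53 to -0.16, MTAP from -0.32 to 0.13 and KLHL9 from -0.018 to 0.050. Among tested members, CDKN2D (1809), BBC3 (2703) and PLK3 (2807) had the fewest counts over the 6 libraries.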

Other observations

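Noncoding RNAs that p53 is known to induce were looked up from a list of 10, of which 8 were found in the table and 2 passed the filter. PURPL held 52.3, 32.4 and 36.2 CPM in shCtrl and 32.3, 27.7 and 31.1 CPM in shTFAM (log2 fold change -0.41, edgeR adjusted p 0.174), and NEAT1, the scaffold of paraspeckles, held 251.5, 137 and 85.7 CPM and 121, 117 and 219 CPM (-0.054, edgeR adjusted p 0.944). MIR34AHG, the host transcript of miR-34a, stood at 26.4 CPM in shCtrl 3 and under 1 CPM in the other 5 libraries, from 0.0585 to 0.737 CPM. PINCR held 0.293, 0.234 and 0.466 CPM in shCtrl and 0 counts in all 3 shTFAM libraries. LINC-PINT held 2.72 and 3.31 CPM (means of shCtrl and shTFAM), and TP53TG1, PANDAR and DINOL stayed under 1 CPM in every library. None of these reached the FPKM filter.

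Within groups, the members were mostly even: the ratio of the highest to the lowest library had a median over the 32 tested members of 1.25 in shCtrl and 1.26 in shTFAM. It exceeded 2 in 5 members, CDKN1A (3.49 in shCtrl and 2.86 in shTFAM), MDM4 (2.20 and 4.35), FAS (2.44 in shCtrl), ZMAT3 (3.75 in shTFAM) and CCNG1 (2.01 in shTFAM). No single library was the extreme one in all 5.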
